A study of Mus musculus with 8 samples.

Results

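The genes described here encode heat shock chaperones, and 10 were named as members: Hspa1a, Hspa1b, Hsph1, Dnajb1, Hspa8, Hsp90aa1, Hsp90ab1, Hspd1, Hspe1 and Hsf1. A member was measured by a probe set whose only gene symbol in the platform's table was its own. By that rule 8 of the 10 had a probe set each, out of 21515 genes in all, and Hsp90ab1 and Hsf1 were not analysed here. RNA of mouse spleen B cells was read on 8 whole-transcript arrays in 4 groups of 2 replicates, which are labelled biological. The labels do not tie them to separate mice, so the p-values measure the spread between these samples. In every group the B cells were enriched from spleen by removing cells that carry CD43.

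YFP control cells came from female YFPflSTOP/+ mice and LMP1 cells from female LMP1flSTOP/YFPflSTOP mice, both (C57BL6XBALBc) F1. A floxed stop cassette keeps the reporter, and in LMP1 mice also the transgene, silent until Cre removes it. Both were given TAT-Cre, a recombinase that enters cells, outside the animal, and were sorted for the YFP reporter after 2 days. The LMP1 protein, encoded by Epstein-Barr virus, needs no ligand and signals through adaptors that are also used by CD40, a receptor of B cells. Male B6/J mice (breed C57BL6) gave the naive control and the CD40-activated cells, which were neither given TAT-Cre nor sorted. The naive cells went straight into RNA extraction and the CD40-activated cells were first kept with anti-CD40 for 2 days. The naive group is therefore the only one that was not cultured. The arrays of YFP control and LMP1 were re-analysed from an earlier series, so every comparison across the 2 mouse backgrounds also crosses sets of arrays, sex and treatment, which cannot be told apart.

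Chaperones bind unfolded proteins and help them to fold, and many of their genes are switched on by heat and other stresses that unfold proteins. HSF1, the main transcription factor of this response, binds heat shock elements, which are inverted repeats of the letters GAA in the promoter. Dividing cells need chaperones for the protein that they make. HSP70 proteins work with a J-domain partner that delivers the client and an exchange factor that releases it, HSP90 matures signalling proteins, and HSP60 with its lid HSP10 folds proteins in the mitochondrial matrix.

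Promoter letters are shown as a description of the members, and their part in the levels given below was not tested. RefSeq promoter windows of assembly GRCm38.p6, from 250 bases before to 50 bases after the annotated start, were found for 6 of the 10 members (9 windows). The stretch of 150 bases before the start is printed 5′ to 3′ for both inducible HSP70 genes, Hspa1b (chr17:34959239-34959388, minus strand) and Hspa1a (chr17:34972157-34972306, minus strand), with a pair of inverted GAA units in capitals. The stretch of 100 bases before the Hspe1 start (chr1:55088048-55088147, plus strand) has a run of 4 units in capitals, and reads on its other strand towards Hspd1.
Hspa1b: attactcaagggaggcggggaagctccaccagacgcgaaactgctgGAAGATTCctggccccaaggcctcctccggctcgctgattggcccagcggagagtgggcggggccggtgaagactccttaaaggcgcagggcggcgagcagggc
Hspa1a: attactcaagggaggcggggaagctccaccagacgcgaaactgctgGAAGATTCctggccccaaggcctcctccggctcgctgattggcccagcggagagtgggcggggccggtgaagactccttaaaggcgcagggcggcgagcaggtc
Hspe1: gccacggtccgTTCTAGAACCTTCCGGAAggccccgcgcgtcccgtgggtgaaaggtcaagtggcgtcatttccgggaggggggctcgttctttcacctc

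The windows of Hspa1a and Hspa1b were equal at 296 of 300 bases and differed at 1 of the 150 printed. Such near copies also make it uncertain how far the probe sets of these genes tell them apart. Each held 1 exact pair of units, GAANNTTC, at bases -104 to -97, and no run of 3. Runs of 3 units (GAANNTTCNNGAA or, on the other strand, TTCNNGAANNTTC) were in windows of 3 members, Hsph1, Hspd1 and Hspe1. Of 32841 promoter windows of the same length, 0.603% held a run of 3 and 15.1% a pair in either order (GAANNTTC or TTCNNGAA). A run of 4 (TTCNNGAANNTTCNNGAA or GAANNTTCNNGAANNTTC), as shown for Hspe1, was in 8 windows, or 0.0244%. It lay at bases -89 to -72 of Hspe1 and at bases -144 to -127 in 1 of the 2 Hspd1 windows. The start of that Hspd1 window is 216 bases from the Hspe1 start, and the genes run in opposite directions. The window of the other annotated Hspd1 start held no pair of units. In Hsph1 the run TTCTGGAAAGTTC lay after the start, at bases 16 to 28 or 37 to 49 by the start used. Neither Dnajb1 window held a pair of units. A match shows only that these letters are present. Only exact units were searched, so a window without a match may still hold units with a changed letter.

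Expression is given as the authors' log2 value per probe set, on which 1 unit is a factor of 2, and each array's median lay between 5.52 and 5.68. Differences are log2 changes with their standard error from 1 limma model of all 8 arrays, with 2 arrays in each group, and a gene is called at a Benjamini-Hochberg adjusted p under 0.05 over all 21515 genes. Array values of different genes cannot be ranked against each other, since probes differ. Replicates correlated over genes at between 0.975 (YFP control) and 0.996 (LMP1). The 2 YFP control arrays were over 1 log2 apart for 950 genes, against 14 genes for the LMP1 arrays. The B cell label was checked with 7 measured markers (among them Cd79a, Ms4a1 and Pax5), whose mean level was between 10.50 and 11.69 on every array.

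Hspa1a and Hspa1b encode the stress-inducible HSP70. Hspa1b was at 12.17 and 10.91 on the naive control arrays, 4.62 and 4.46 on YFP control, 4.62 and 4.86 on CD40-activated and 6.60 and 5.90 on LMP1. Both naive arrays were thus far above all others, both LMP1 arrays were above the remaining 4, and YFP control and CD40-activated met at 4.62. Hspa1a was at 12.19 and 9.97 on naive control, 4.0 and 4.33 on YFP control, 4.52 and 4.63 on CD40-activated and 5.34 and 5.03 on LMP1. The order of the groups was the same as for Hspa1b, and naive array 1 was above naive array 2 for both genes. No background or detection value per probe set was used here, so it is not known whether the low values of these genes, on YFP control and CD40-activated arrays in particular, lie above background. Where they do not, a difference from them is a lower bound, and no fold is given for it. A further probe set that carries both symbols, outside the rule, was at 7.66 and 5.49 on naive control and between 4.06 and 4.38 on the other 6 arrays.

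Partners of HSP70 had the same order of group means with a smaller range. Dnajb1, a J-domain protein that brings clients to HSP70, was at 9.97 and 9.31 on naive control, 7.68 and 6.95 on YFP control, 7.99 and 7.89 on CD40-activated and 8.01 and 7.91 on LMP1. CD40-activated and LMP1 arrays overlapped and lay above both YFP controls. Hsph1, an HSP110 protein that acts as an exchange factor for HSP70, was at 10.19 and 9.58 on naive control, 7.89 and 7.18 on YFP control, 8.48 and 8.71 on CD40-activated and 9.12 and 9.09 on LMP1. Its 4 groups did not overlap with each other.

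Hspa8 encodes the constitutive HSP70 of the cytosol, and its probe set hardly varied. It was at 12.17 and 12.02 on naive control, 12.14 and 11.85 on YFP control, 12.37 and 12.43 on CD40-activated and 12.50 and 12.54 on LMP1. Its group means spanned 0.53. The signal was above that of 99.8% to 99.9% of genes in each group, and whether differences show in full at that level was not tested. Both LMP1 and both CD40-activated arrays lay above the 4 control arrays, which overlapped. A probe set shared by Hspa8 and the small nucleolar RNA gene Snord14e, outside the rule, was at 12.18 and 11.66 on naive control, 9.28 and 9.31 on YFP control, 10.51 and 10.71 on CD40-activated and 10.40 and 10.50 on LMP1. It was highest in naive cells, unlike the probe set of Hspa8 alone.

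Hsp90aa1, which encodes the alpha form of cytosolic HSP90, was at 8.97 and 8.71 on naive control, 7.78 on both YFP controls, 8.69 and 8.71 on CD40-activated and 9.19 and 8.92 on LMP1. YFP control lay below the other groups, LMP1 overlapped naive control, and CD40-activated touched the lower naive value.

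Of the mitochondrial chaperonin genes, Hspd1 was highest in LMP1 cells, and the LMP1 and CD40-activated arrays of Hspe1 overlapped. Hspd1, encoding HSP60, was at 9.65 and 9.33 on naive control, 8.98 and 9.20 on YFP control, 9.76 and 10.09 on CD40-activated and 10.90 and 11.04 on LMP1. No 2 groups overlapped, and LMP1 stood apart above the rest. Hspe1, encoding the lid HSP10, was at 8.55 and 7.71 on naive control, 7.43 and 6.65 on YFP control, 8.76 and 8.70 on CD40-activated and 8.86 and 8.69 on LMP1. CD40-activated and LMP1 overlapped above the naive arrays, and YFP control was lowest, as it was for every one of the 8 genes by its group mean.

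**Figure D1:**
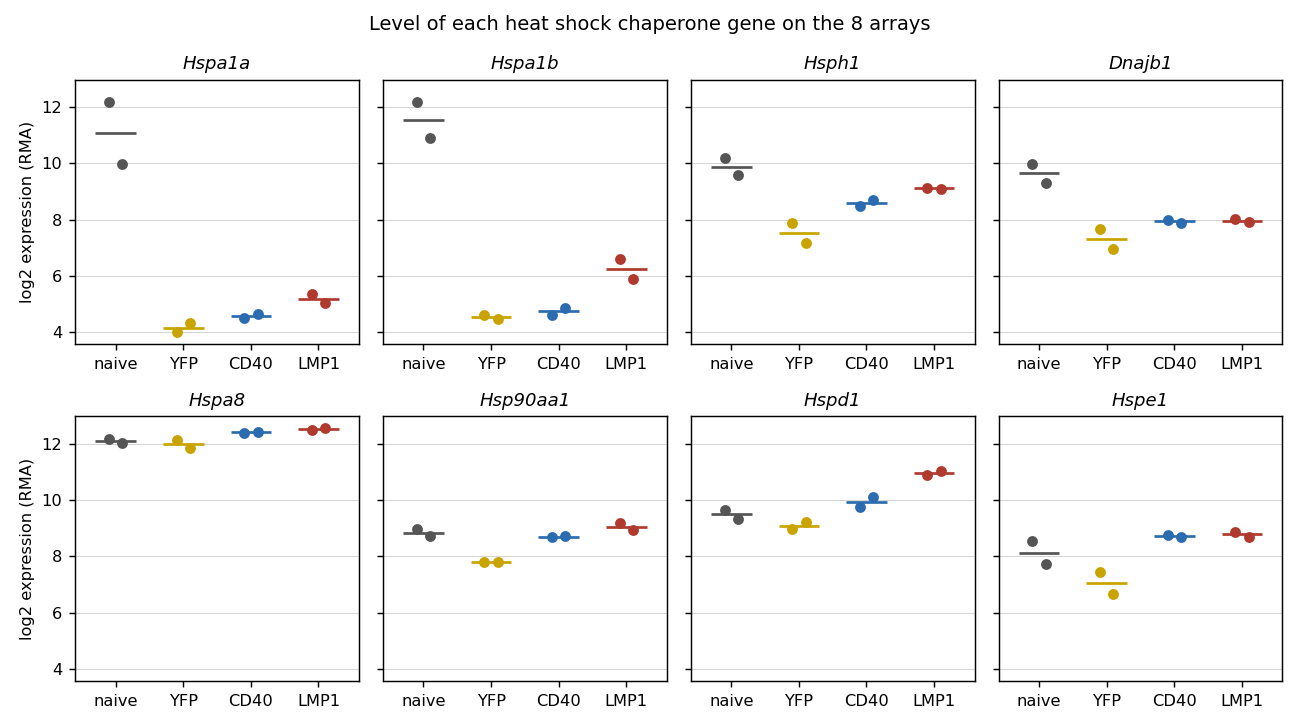
Level of each of the 8 chaperone genes, as log2 expression from RMA, in naive control (naive), YFP control (YFP), CD40-activated (CD40) and LMP1 cells. Points are the 2 arrays of a group and lines their mean; Hspa1a and Hspa1b lie at 9.97 or above on naive arrays and at 6.60 or below elsewhere, while Hspd1 is highest on LMP1 arrays.

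The 2 controls differ in culture, TAT-Cre, sort, strain, sex and array set, and the first comparison is between them. Of the 8 genes 6 were lower in YFP control than in naive control and none higher (limma; none higher at an unadjusted p under 0.05 either). Of all genes 7.59% were called lower and 10.9% higher. Hspa1b fell by 7.00 ± 0.37 (adjusted p = 1.26e-05) and Hspa1a fell by 6.92 ± 0.54 (adjusted p = 5.81e-05), both on the deposited scale and with the limit on low values given above. Their partners Hsph1 fell by 2.35 ± 0.27 and Dnajb1 fell by 2.33 ± 0.27. Hsp90aa1 fell by 1.06 ± 0.17 (adjusted p = 0.00294). Hspe1 fell by 1.09 ± 0.30 (adjusted p = 0.0337), a call lost in 9 of 15 alternatives, with adjusted p = 0.162 without YFP control replicate 2 and adjusted p = 0.182 without naive control replicate 1. Hspd1 (-0.40 ± 0.19) and Hspa8 (-0.10 ± 0.17) did not pass. The median change of the 8 genes was -1.71, against 0.005 over all genes.

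The next comparison asks how B6/J cells kept with anti-CD40 for 2 days differed from those that were not cultured. The inducible HSP70 genes and both of their partners fell, and the other 4 genes did not pass. That is 4 of 8 lower and none higher (limma; 1 higher at an unadjusted p under 0.05), with 6.65% of all genes called lower and 11% higher. Hspa1b fell by 6.80 ± 0.37 (adjusted p = 1.65e-05) and Hspa1a fell by 6.505 ± 0.54 (adjusted p = 7e-05), with the same limit. Without naive control replicate 1 these values were -6.17 and -5.39, and both stayed called. Dnajb1 fell by 1.70 ± 0.27 (3.25-fold, adjusted p = 0.00229). Hsph1 fell by 1.29 ± 0.27 (adjusted p = 0.00861), which was lost without naive control replicate 1 (-0.98, adjusted p = 0.0623) or CD40-activated replicate 1 (-1.18, adjusted p = 0.0866). The genes without a call were Hspe1 (0.60 ± 0.30), Hspd1 (0.43 ± 0.19), Hspa8 (0.30 ± 0.17) and Hsp90aa1 (-0.14 ± 0.17). Both comparisons with naive cells use the same naive arrays, so their values are not independent.

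Markers of other cells were also higher on the naive arrays, and in RNA of mixed cells fewer cells of a type cannot be told apart from less RNA per cell. All 8 T cell markers were lower in CD40-activated and in YFP control cells than in naive cells (Cd3e at -3.28 and -3.50), and so were the 4 measured of 8 erythroid markers (Slc4a1 at -4.90 and -4.57). The mean of the T cell markers was 8.81 and 8.54 on naive arrays and between 5.64 and 6.21 on the other 6. For erythroid markers it was 9.17 and 7.67 on naive arrays and between 5.08 and 5.47 elsewhere. NK cell markers were lower in 3 of 5 and 4 of 5 genes, with a mean of 6.67 and 6.03 on naive arrays and between 4.04 and 4.56 elsewhere. Naive array 1, which had more Hspa1a and Hspa1b, also had the higher mean of erythroid, T cell and NK cell markers. From naive array 1 to array 2 the 8 chaperone genes differed by a median of -0.64, against -0.01 over all genes. Between LMP1, CD40-activated and YFP control cells limma called none of the 4 erythroid and none of the 5 NK cell markers (at an unadjusted p under 0.05, none and at most 1 per comparison). T cell markers were called lower in LMP1 cells for Cd3g and Lat against YFP control and for Cd5 and Lat against CD40-activated. Of platelet markers 2 of 4 were called lower than in naive cells in both comparisons (Ppbp at -3.03 in CD40-activated and -2.50 in YFP control). Of 6 monocyte and macrophage markers 3 were lower in CD40-activated cells (Lyz2 at -2.27), while in YFP control Itgam was lower (-1.01) and Adgre1 higher (1.91). The part of these cells in the chaperone values of naive control was not tested.

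Immediate-early genes, which answer stimuli and handling within minutes, moved in these comparisons as well. Of 14 such genes 11 were lower in CD40-activated than in naive cells, against 6.65% of all genes. In YFP control 8 were lower than in naive cells, against 7.59% of all genes, and 1 was higher, Egr2 (0.89 ± 0.21). Fos was at 10.43 and 9.11 on naive arrays and between 5.40 and 6.21 on the others.

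**Figure D2:**
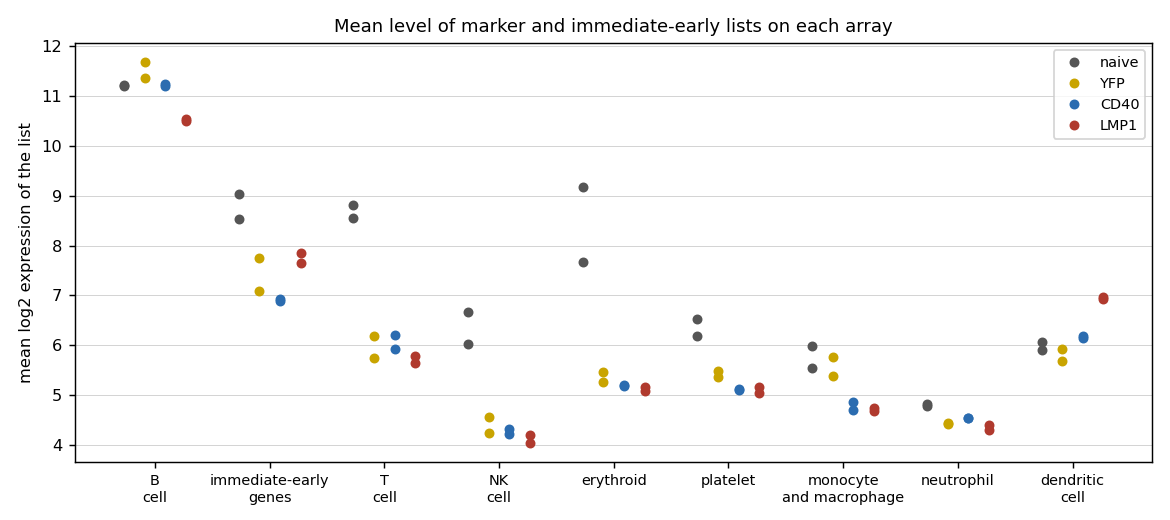
Mean log2 expression of each marker list and of the immediate-early genes on every array, 2 points per group. B cell markers are at 10.50 or above on all arrays, while T cell, NK cell and erythroid means are highest on both naive arrays.

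What LMP1 changed is read against YFP control, which shares its F1 background, female sex, TAT-Cre and sort. Here 5 of the 8 genes rose and none fell (limma; 7 up and none down at an unadjusted p under 0.05), with 14.9% of all genes called higher and 8.31% lower. Of the mitochondrial chaperonin, Hspd1 rose by 1.88 ± 0.19 (3.68-fold, adjusted p = 0.000124) and Hspe1 by 1.74 ± 0.30 (3.33-fold, adjusted p = 0.00239). Hsph1 rose by 1.57 ± 0.27 (adjusted p = 0.00198) and Hsp90aa1 by 1.27 ± 0.17 (adjusted p = 0.000587). Hspa1b rose by 1.71 ± 0.37 (adjusted p = 0.00722), with the limit on low values given above, so it cannot be ranked against the others. This call was lost without LMP1 replicate 1, where the change was 1.36.

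The other 3 genes lay near the threshold or had a wide spread. Hspa8, at 0.53 ± 0.17, had an adjusted p of 0.05002 and passed in some alternatives, such as eBayes with trend and robust fitting (adjusted p = 0.0145). Dnajb1 was at 0.65 ± 0.27 (adjusted p = 0.124), with 1.01 (adjusted p = 0.0197) without YFP control replicate 1, 0.28 (adjusted p = 0.57) without YFP control replicate 2 and 0.35 when each array set was quantile normalized on its own. Hspa1a was at 1.02 ± 0.54 (adjusted p = 0.217), and its naive arrays, which enter the shared spread, lay far apart. With only the LMP1 and YFP control arrays in the model Hspa1a had an adjusted p of 0.0232. The median change of the 8 genes was 1.42, against -0.08 over all genes. Beside these changes 5 of 7 B cell markers fell, from a mean of 11.69 and 11.37 on YFP control arrays to 10.50 and 10.54 on LMP1 arrays. Monocyte and macrophage markers fell in 2 of 6 genes, dendritic cell markers rose in 2 of 4, and of the 14 immediate-early genes 5 rose and 3 fell. The part of these differences in the chaperone values was not tested.

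CD40-activated cells were also set against YFP control cells, since both were cultured. All differences were positive and 4 of 8 genes were called higher, with 7.75% of all genes called higher and 6.06% lower. Hspe1 was higher by 1.69 ± 0.30 (adjusted p = 0.00558), Hsph1 by 1.06 ± 0.27 (adjusted p = 0.0267), Hsp90aa1 by 0.92 ± 0.17 (adjusted p = 0.00713) and Hspd1 by 0.83 ± 0.19 (adjusted p = 0.0186). Dnajb1 (0.62), Hspa1a (0.41), Hspa8 (0.40) and Hspa1b (0.20) did not pass. No call was kept without CD40-activated replicate 1 (lowest adjusted p = 0.0543) or without CD40-activated replicate 2 (lowest adjusted p = 0.0567). This comparison shares the YFP control arrays with that of LMP1. Markers called lower in CD40-activated than in YFP control cells were Lyz2 (-1.45) and Adgre1 (-2.08) of monocytes and macrophages and Cd79b (-0.99) and Ebf1 (-0.70) of B cells, and Siglech of dendritic cells was higher (0.88). Their part in the chaperone values was not tested.

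Between LMP1 and CD40-activated cells 2 genes differed. Hspa1b was higher in LMP1 by 1.51 ± 0.37 (adjusted p = 0.0208) and Hspd1 by 1.04 ± 0.19 (2.06-fold, adjusted p = 0.00535), with 9.66% of all genes called higher and 5.17% lower. Neither call was stable to leaving out single arrays: Hspa1b was lost without LMP1 replicate 1 or either CD40-activated array (adjusted p between 0.102 and 0.189), and Hspd1 without LMP1 replicate 2 (adjusted p = 0.0665) or CD40-activated replicate 1 (adjusted p = 0.0698). Dnajb1 was at 0.02 ± 0.27 and Hspe1 at 0.04 ± 0.30, with overlapping arrays. Hspa1a (0.61 ± 0.54), Hsph1 (0.51 ± 0.27), Hsp90aa1 (0.35 ± 0.17) and Hspa8 (0.12 ± 0.17) did not pass either. In the same comparison 4 of 7 B cell markers were lower in LMP1 cells (Cd22 at -2.06), the dendritic cell markers Flt3 (2.58) and Zbtb46 (1.21) were higher and Siglech (-1.28) was lower. Of the immediate-early genes 6 were higher and 1 lower. The part of these differences was not tested.

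**Figure D3:**
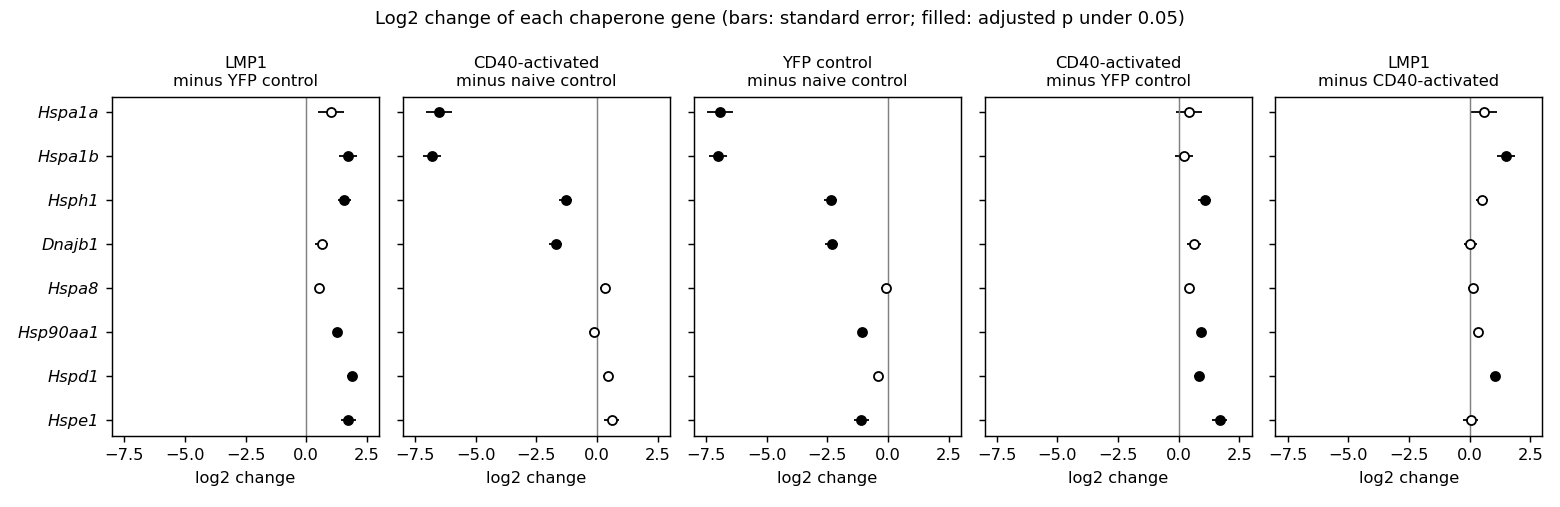
Log2 change of each chaperone gene in 5 comparisons; bars are the standard error from the limma model and filled points have an adjusted p under 0.05. Hspa1a and Hspa1b lie between -7.00 and -6.505 in both comparisons with naive control, and all 8 genes lie above 0 in LMP1 minus YFP control.

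The difference of the responses, LMP1 minus YFP control less CD40-activated minus naive control, was positive and called for 6 of the 8 genes, with 4.2% of all genes called higher and 4.12% lower. It was 8.51 ± 0.52 for Hspa1b (adjusted p = 2.76e-05), 7.52 ± 0.76 for Hspa1a, 2.86 ± 0.38 for Hsph1 and 2.35 ± 0.38 for Dnajb1. The values of Hspa1b and Hspa1a rest on their low values in YFP control and CD40-activated cells, so the limit on low values holds for them too. For Hspa1b, Hspa1a and Dnajb1 the fall from naive to CD40-activated cells was the larger part of this value, and for Hsph1 the rise in LMP1 cells was. Only the CD40 response was measured against uncultured cells. For Hspd1 the difference was 1.45 ± 0.27 (adjusted p = 0.011) and for Hsp90aa1 1.42 ± 0.25 (adjusted p = 0.00722). The call for Hsp90aa1 was lost without LMP1 replicate 1 (adjusted p = 0.0576), and that for Hspd1 without LMP1 replicate 2 (adjusted p = 0.0704) or CD40-activated replicate 1 (adjusted p = 0.0692). Hspe1 (1.14 ± 0.43) and Hspa8 (0.22 ± 0.24) did not pass.

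Further chaperone genes were taken from 8 lists with 76 genes, of which 67 were measured. In LMP1 cells against YFP control 43 of the 67 rose (64.2%, against 14.9% of all genes) and 1 fell (1.49%, against 8.31%). In CD40-activated against naive cells 22 rose (32.8%, against 11%) and 4 fell (5.97%, against 6.65%). In YFP control against naive cells 3 were higher (4.48%, against 10.9%) and 11 lower (16.4%, against 7.59%). In CD40-activated against YFP control cells 27 were higher (40.3%, against 7.75%) and 2 lower (2.99%, against 6.06%). In LMP1 against CD40-activated cells 16 were higher (23.9%, against 9.66%) and 2 lower (2.99%, against 5.17%). The share called lower was thus above that of all genes in YFP control against naive cells. In CD40-activated against naive cells it was near that of all genes. The shares of all genes given here also apply to the counts of each list below. How the calls of these genes depend on single arrays was not examined.

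Cytosolic folding machines moved together in LMP1 cells. All 8 subunits of TRiC, the ring-shaped chaperonin that folds actin and tubulin, rose against YFP control, from Cct4 at 0.81 to Cct6a at 1.79 ± 0.16. In CD40-activated against naive cells 6 of the 8 rose, led by Cct3 at 1.10 ± 0.18, and Cct7 (0.32) did not pass. Of 5 measured subunits of prefoldin, which hands clients to TRiC, 4 rose in LMP1 cells, with Pfdn6 at 1.19 ± 0.17, and none of the 5 was called by limma in CD40-activated against naive cells (1 at an unadjusted p under 0.05). Against YFP control 3 of the 5 were called higher in CD40-activated cells.

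HSP90 co-chaperones rose in LMP1 cells for 5 of 6 measured genes, led by Stip1, which links HSP70 to HSP90, at 1.45 ± 0.16. Ppid was at 1.44 ± 0.21 and the kinase-specific partner Cdc37 at 1.34 ± 0.31. Arrays of Cdc37 were at 8.93 and 7.78 on YFP control and at 9.65 and 9.75 on LMP1. None of the 6 was called by limma in CD40-activated against naive cells (1 at an unadjusted p under 0.05), where Stip1 was at 0.36. Against YFP control, however, 2 of the 6 were called higher in CD40-activated cells, Cdc37 (1.345 ± 0.31) and Ppid (1.055 ± 0.21). Between LMP1 and CD40-activated cells 2 of the 6 were called, Stip1 (0.93) and Ahsa1 (0.79), both higher in LMP1. The difference of the responses was called for 4 of the 6, Fkbp4 (1.51 ± 0.29), Ppid (1.30 ± 0.29), Ahsa1 (1.10 ± 0.24) and Stip1 (1.09 ± 0.23). Ppid (-0.92) and Fkbp4 (-0.875) were also called lower in YFP control than in naive cells, and this enters their difference of the responses.

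Among 7 measured mitochondrial chaperones and proteases 6 rose in LMP1 cells, namely the protease genes Htra2 (2.44 ± 0.38) and Lonp1 (1.88 ± 0.27), the mitochondrial HSP70 gene Hspa9 (1.6 ± 0.18) and Trap1, Dnaja3 and Grpel1. The YFP control arrays lay apart for both proteases. Htra2 was at 9.35 and 7.85 on YFP control and 11.02 and 11.06 on LMP1, and Lonp1 at 7.51 and 6.53 on YFP control and 8.92 and 8.87 on LMP1. In CD40-activated against naive cells Hspa9 (1.07 ± 0.18), Grpel1 (0.91 ± 0.25) and Trap1 rose. Hspa9, which works beside HSP60 in the matrix, was at 10.13 and 10.37 on naive control, 10.23 and 9.91 on YFP control, 11.32 and 11.33 on CD40-activated and 11.67 on both LMP1 arrays. Its naive and YFP control arrays overlapped, as those of Hspa1b did not.

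Partners of cytosolic HSP70 rose in LMP1 cells for 11 of 15 measured genes, with Hspbp1, an exchange factor, at 1.81 ± 0.30 and Bag2 at 1.31 ± 0.20. Hspbp1 was at 8.53 and 7.41 on the YFP control arrays and at 9.78 on both LMP1 arrays. Against naive cells 3 rose in CD40-activated cells, among them the HSP110-family gene Hspa4 (0.88 ± 0.16), and 1 fell, Dnajb2 (-0.83 ± 0.25). Of all genes 11% were called higher and 6.65% lower there. Chaperones of the endoplasmic reticulum rose for 7 of 11 genes in each of these comparisons. Hspa5, which encodes BiP, rose by 1.43 ± 0.20 in LMP1 cells and was at -0.07 ± 0.20 in CD40-activated against naive cells. Its arrays were at 9.51 and 9.07 on naive control, 8.0 and 7.76 on YFP control, 9.11 and 9.34 on CD40-activated and 9.36 and 9.25 on LMP1, so that YFP control alone was low.

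The list of further HSF1 targets was mixed. Of 9 measured cofactors and small heat shock proteins, 3 fell in CD40-activated against naive cells, namely Dnaja4 (-1.02 ± 0.23), Hspa4l (-1.01 ± 0.22) and Cryab (-0.61 ± 0.18). The share of all genes called lower there was 6.65%. In YFP control Dnaja4 (-1.15 ± 0.23) and Chordc1 (-0.79 ± 0.15) were lower than in naive cells. Bag3, a partner of HSP70 that is induced by heat in many cells, was at 6.41 and 6.33 on naive control, 5.90 and 5.92 on YFP control, 5.87 and 5.94 on CD40-activated and 6.29 and 6.21 on LMP1. Naive and LMP1 arrays lay above the rest, but the differences of CD40-activated and YFP control from naive cells (adjusted p = 0.0671 and 0.0665) and of LMP1 from YFP control (adjusted p = 0.154) did not pass in the limma fit. In LMP1 against YFP control Chordc1 rose by 1.11 ± 0.15 and Hspa4l fell by 0.79 ± 0.22. That is 1 of 9 higher and 1 lower, with 14.9% of all genes called higher and 8.31% lower. Of 60 genes of all 8 lists with a promoter window, 2 held a run of 3 GAA units, Chordc1 and Dnajb6. Of all promoter windows, counted by window and not by gene, 0.603% held such a run.

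Hsf2, a second heat shock factor, rose in LMP1 against YFP control by 1.98 ± 0.24 (adjusted p = 0.000332). It was the only gene of its list of 6 called higher, with 14.9% of all genes called higher. It was at 5.78 and 5.59 on naive control, 6.69 and 5.92 on YFP control, 6.62 and 6.82 on CD40-activated and 8.39 and 8.18 on LMP1. It also rose in CD40-activated against naive cells, by 1.03 ± 0.24, and was higher in LMP1 than in CD40-activated cells by 1.56 ± 0.24. Hsbp1, a small protein that binds heat shock factors, was higher in YFP control (1.77 ± 0.20) and CD40-activated cells (1.06 ± 0.20) than in naive cells. Of the list of 6, 2 were called higher in YFP control, Hsbp1 and Atxn3, with 10.9% of all genes called higher. In CD40-activated cells 3 were, Hsf2, Hsf5 and Hsbp1, with 11% of all genes called higher. None of the 6 was called lower than in naive cells. Any part of these genes in the chaperone values was not tested.

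**Figure D4:**
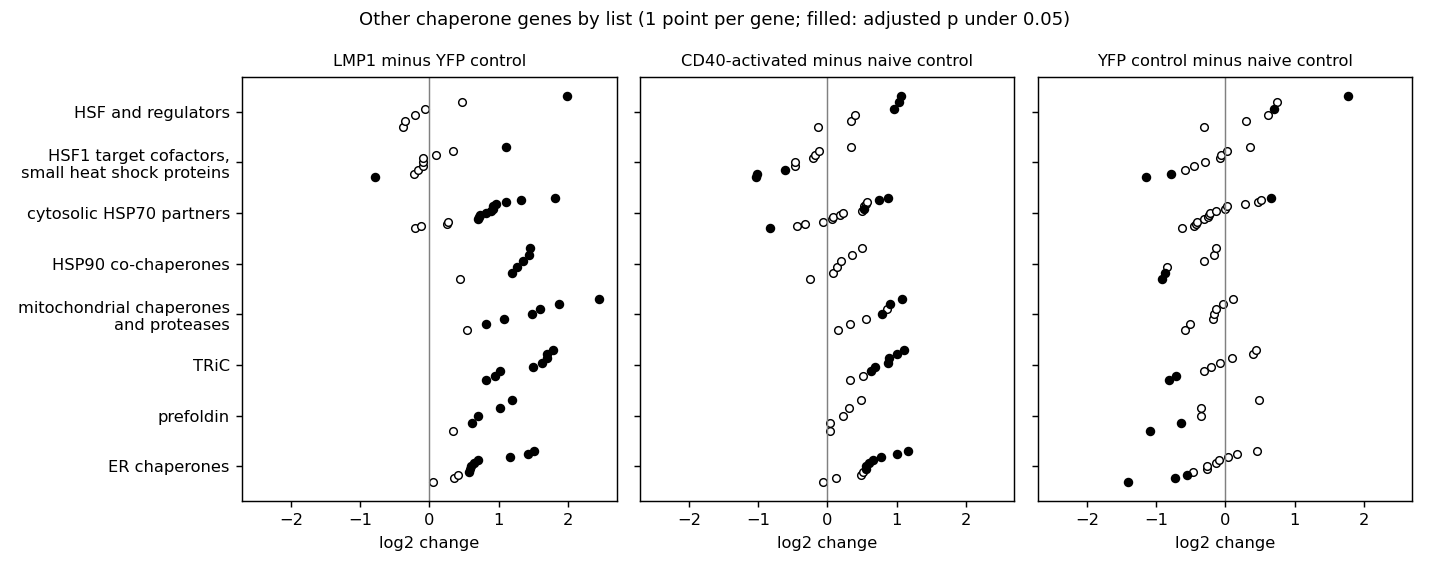
Log2 change of 67 further chaperone genes in 8 lists, 1 point per gene, in 3 comparisons; filled points have an adjusted p under 0.05. All 8 TRiC subunits lie above 0 and are called in LMP1 minus YFP control. In YFP control minus naive control 3 of the 67 genes are called higher, against 10.9% of all genes, and 11 lower, against 7.59%.

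Likeness over the 8 arrays was measured by Pearson's r among 4802 genes with an SD of at least 0.5 log2. The members were left out, but the further chaperone genes were not. The genes most like Hspa1b were Fos (0.990), Prkar2b (0.987), Isg15 (0.983), Camk4 (0.982) and Thy1 (0.972). Those most like Hspd1 were Cdk6 (0.985), Tnfaip3 (0.984), Ero1a (0.984), Atp10a (0.983) and Abcb6 (0.979). These are descriptions over 8 arrays that fall into 4 groups: the first set is highest on naive arrays and the second on LMP1 arrays. Hspa1b and Hspd1 themselves were at r = -0.08 (n = 8 arrays), while Hspa1b and Hspa1a were at 0.988 and Hspa1b and Dnajb1 at 0.949.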

How the data were processed

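RNA of 8 samples was hybridised to 8 arrays. The deposited values are log2 expression per probe set; the submitters' processing notes name RMA and the package oligo, and versions and genome build are not given in the sources used here. The table held 25349 probe sets, 22225 of them with 1 symbol, 616 with several and 2508 with none. Where a gene had several (640 genes), the probe set with the highest mean stood for it. All arrays entered a model of 4 group means in limma 3.58.1 under R 4.3.3 (lmFit, eBayes, two-sided, Benjamini-Hochberg), with 4 residual and 5.75 prior degrees of freedom, and the script was tested on simulated data. Of each further list and comparison the 3 genes with the largest change and the 1 with the smallest could be named. Bag3, Trap1, Dnaja3, Dnajb6, Grpel1 in LMP1, some markers and Egr2 and Stip1 in the difference of responses were chosen after their values were seen. The members and lists were chosen with earlier results of these data known. The number of arrays limits the precision. Alternatives changed the variance model, the arrays fitted, dim genes, the probe set rule, the scaling or the replicate block, or left out 1 array.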

Additional observations from a re-analysis of the deposited data

Results flagged for a closer look

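The response to LMP1 (against YFP control) and the response to anti-CD40 (against naive control) differed by the model's own test of the difference, in log2 units, for 6 of the 8 chaperone genes. The difference was 7.52 for Hspa1a, 8.51 for Hspa1b, 2.86 for Hsph1, 2.35 for Dnajb1, 1.42 for Hsp90aa1 and 1.45 for Hspd1. For all 6 the control of the CD40 response was uncultured and that of the LMP1 response cultured, and culture, TAT-Cre, sort, strain, sex and array set cannot be told apart in these values. The values of Hspa1a and Hspa1b rest on low levels not shown to lie above background.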

How the results depend on the processing

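Of 48 values (8 genes in 6 comparisons) 27 were called, and 16 of these kept their call in every alternative run; the other 11 lost it in at least 1. Of the 21 not called, 8 passed in some alternative. With only the groups compared in the model, 4 chaperone genes were called between LMP1 and CD40-activated (6360 genes in all), 2 between CD40-activated and YFP control (1667 in all), and 1537 genes in all between YFP control and naive control. The labels do not say whether replicate numbers mark shared animals, and deviations of same-numbered arrays correlated at 0.065 in the F1 set and -0.069 in the B6/J set. With the replicate block 1 chaperone gene was called between CD40-activated and YFP control, against 4 without it, and over all genes 1477, against 2970. The block gave 1931 genes in all between LMP1 and CD40-activated, against 3191, and 1865 between YFP control and naive control, against 3986; Hspe1 then lost its call there (adjusted p = 0.0506).

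Leaving out 1 array at a time gave between 4 and 7 chaperone genes for LMP1 against YFP control (2647 to 7090 genes in all), 3 to 4 for CD40-activated against naive control (1576 to 5631), 0 to 2 for LMP1 against CD40-activated (1275 to 4735), 5 to 6 for YFP control against naive control (2695 to 5955), 0 to 6 for CD40-activated against YFP control (843 to 5471) and 5 to 7 for the difference of responses (707 to 4199). Fewer arrays leave fewer degrees of freedom. In each comparison the highest count over all genes came from leaving out YFP control replicate 1. Values near 0 turned sign: Dnajb1 in LMP1 against CD40-activated was at -0.021 with quantile normalization within each set and between -0.03 and 0.07 without single arrays, Hspe1 there between -0.04 and 0.13, and Hspa8 in YFP control against naive control between -0.245 and 0.045.

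Quantile normalization within each set moved the share of higher calls from 64.2% to 53.4% for LMP1 against YFP control and from 56.1% to 42.2% for CD40-activated against YFP control. Subtracting array medians moved it from 62.4% to 74.3% for CD40-activated against naive control, where the median of all genes went from -0.05 to 0.06.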
